A study of Mus musculus with 54 samples.

Results

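The Slco genes encode the organic anion transporting polypeptides, membrane carriers that bring bulky organic anions into cells. Their substrates include bile salts, steroid sulfates, thyroid hormones, prostaglandins and many drugs. In the mouse, the Slco1a genes lie next to each other on chromosome 6, and the families are used differently by tissue, with renal tubule, blood-brain barrier and choroid plexus as well-known sites. The members described here are 9 Slco genes (Slco1a1, Slco1a4, Slco1a6, Slco1c1, Slco2a1, Slco2b1, Slco3a1, Slco4a1 and Slco4c1) and the Slco1a-like gene Gm6614, which makes 10 of the 54232 genes counted in each library. They were chosen by gene symbol with their levels and treatment effects in these libraries already known, so their values in the aged tissues are a description. No p-value is given for a member there, and a count of members past the threshold is printed beside its background only, as part of that description. The 7 other Slco genes that were looked up are described at the end.

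RNA was sequenced from kidney, brain and heart of male BL6 mice of about 20 months, which had received daily intraperitoneal injections for 14 days. Animals received either Cmpd60, a selective inhibitor of the histone deacetylases HDAC1 and HDAC2, at 22.5 mg/kg or its vehicle of DMSO, PEG400 and saline. There were 5 vehicle and 6 Cmpd60 libraries of kidney, 6 and 6 of brain, and 6 and 5 of heart. A second experiment used the brain of male APPSWE-1349 mice of 6 to 7 months, which carry a transgene for human amyloid precursor protein with the Swedish mutation on a BL6 background, and of their littermates. The same dose and schedule were used there, and the promoter of the transgene is not given in the sources used here. Its libraries comprised 6 APPSWE vehicle, 4 APPSWE Cmpd60, 5 littermate vehicle and 5 littermate Cmpd60 samples. The labels do not say which tissues came from the same animal, and where nothing shows that libraries of a group are separate animals, the tests measure only the spread between libraries.

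Libraries of the aged mice held 23584609 to 57430113 gene counts, those of the second experiment 25052335 to 55871402, and levels are given as CPM, which scales counts by the TMM-adjusted library size. For kidney, titles and source names were followed, as were the headings of the study's table, although the labels' treatment entry reads the other way round, so the kidney directions and the vehicle levels of the kidney rest on the titles. The APPSWE library vehicle-139 is labelled vehicle and headed Cmpd60 in the study's table, and was left out of the tests. Marker sums followed the labelled tissues: the 8 proximal tubule markers summed to at least 7781 CPM in each kidney library and to at most 20.4 CPM in any aged brain or heart library. In the second experiment, 5 of the 19 tested libraries had fewer than 17000 genes detected, against up to 24821 in the others. By their titles they were vehicle-155 and Cmpd-60-152 of the littermates and Cmpd-60-141, vehicle-140 and vehicle-146 of the APPSWE mice. In the kidney, Cmpd60 replicates 53 and 55 and vehicle replicate 49 had 18512 to 20069 genes detected against 21832 to 23062 in the others, and Cmpd60 replicate 55 had the lowest proximal tubule sum (7781 CPM, against 12077 to 17932 CPM in the other 10 kidneys).

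In RefSeq (GRCm38.p6), the cluster on chromosome 6 runs in the order Slco1c1, Slco1b2, Gm5724, Slco1a4, Slco1a1, Gm6614, Slco1a6 and Slco1a5, with 2 lncRNA genes and 1 pseudogene between them. Gm6614 therefore lies between Slco1a1 and Slco1a6. The results turn on this neighbourhood, on the brain-rich pair Slco1a4 and Slco1c1, and on Slco2a1, so their promoter windows are shown. Each runs from 250 bases before the annotated start site to 50 bases after it, 5′ to 3′ on the strand of the gene. For Gm6614, the annotated start is the first letter of an atg, and its GENCODE M1 model holds no UTR. Whether that window lies at the start of transcription was not tested. Capitals mark every match, on either strand, to the TATA-box letters TATAAA, the CAAT-box letters CCAAT, the GC-box letters GGGCGG, the E-box CACGTG, the overlapping hypoxia-type core ACGTG, the receptor half-site AGGTCA, the HNF1 half-site GTTAAT and the antioxidant-type element TGACNNNGC.
Gm6614, chr6:142008696-142008995, minus strand: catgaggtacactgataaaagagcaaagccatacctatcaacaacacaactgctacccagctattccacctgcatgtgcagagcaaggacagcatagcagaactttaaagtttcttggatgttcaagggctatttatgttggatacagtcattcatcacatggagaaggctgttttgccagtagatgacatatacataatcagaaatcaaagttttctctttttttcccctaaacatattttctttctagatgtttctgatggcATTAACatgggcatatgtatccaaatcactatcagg
Slco1a1, chr6:141946913-141947212, minus strand: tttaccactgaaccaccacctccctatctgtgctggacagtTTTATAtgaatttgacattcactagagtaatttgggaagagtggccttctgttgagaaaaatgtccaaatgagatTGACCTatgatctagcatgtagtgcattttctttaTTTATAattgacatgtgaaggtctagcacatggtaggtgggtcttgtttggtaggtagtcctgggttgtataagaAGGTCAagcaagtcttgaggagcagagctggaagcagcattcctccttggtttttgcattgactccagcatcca
Slco1a6, chr6:142186100-142186399, minus strand: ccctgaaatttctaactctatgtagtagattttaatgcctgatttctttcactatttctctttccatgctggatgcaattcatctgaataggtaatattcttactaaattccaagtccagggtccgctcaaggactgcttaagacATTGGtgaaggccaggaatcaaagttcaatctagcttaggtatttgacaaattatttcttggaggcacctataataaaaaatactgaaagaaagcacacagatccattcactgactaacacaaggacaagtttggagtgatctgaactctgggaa
Slco1a4, chr6:141856171-141856470, minus strand: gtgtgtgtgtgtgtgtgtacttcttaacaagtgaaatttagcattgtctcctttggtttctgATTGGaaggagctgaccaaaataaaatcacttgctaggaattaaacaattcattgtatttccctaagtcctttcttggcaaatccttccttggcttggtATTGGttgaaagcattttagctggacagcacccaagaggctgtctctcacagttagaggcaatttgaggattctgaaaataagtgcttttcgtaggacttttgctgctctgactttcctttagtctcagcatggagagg
Slco1c1, chr6:141524104-141524403, plus strand: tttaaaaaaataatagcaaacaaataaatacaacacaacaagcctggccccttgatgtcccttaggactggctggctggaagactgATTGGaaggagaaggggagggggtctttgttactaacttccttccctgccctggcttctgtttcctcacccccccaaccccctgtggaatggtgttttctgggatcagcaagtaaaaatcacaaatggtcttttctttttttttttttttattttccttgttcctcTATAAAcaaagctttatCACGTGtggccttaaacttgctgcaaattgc
Slco2a1, chr9:103008237-103008536, plus strand: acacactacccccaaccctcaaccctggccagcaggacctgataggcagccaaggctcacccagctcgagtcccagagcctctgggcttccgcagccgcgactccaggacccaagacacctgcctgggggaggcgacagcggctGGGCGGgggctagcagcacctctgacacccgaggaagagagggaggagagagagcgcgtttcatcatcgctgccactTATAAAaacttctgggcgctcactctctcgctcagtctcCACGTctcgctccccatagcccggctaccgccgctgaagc

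RefSeq gave 12 such windows for 9 of the 10 members. Counting the start base as position 0, the Slco1a1 promoter held AGGTCA, the half-site letters of several nuclear receptors, at -24 to -19 and again on the other strand at -134 to -129. AGGTCA was in 16.3% of the 32851 mouse promoters of this length. It was not among the letters of the Gm6614, Slco1a6 and Slco1a4 windows. Gm6614 held 1 match to GTTAAT, part of the HNF1 recognition letters, at 14 to 19 on the other strand, a motif in 7.1% of all promoters. The match comes after the atg at position 0, in a window not shown to be a promoter. Slco1a4 held CCAAT on the other strand at -188 and -89, and Slco1a6 held it at -105 (37.4% of all promoters). Slco1c1 held CACGTG just after its start (7.15% of all promoters), a palindrome that also counts as a match to ACGTG on both strands. Slco2a1 was the only one of these 6 with the GC-box letters GGGCGG (35.7% of all promoters). It also held TATAAA at -29 to -24, a motif found in the Slco1a1 and Slco1c1 windows too and in 13.6% of all promoters. The Slco2a1 window was 64% G and C with 18 CG pairs, whereas the 5 windows on chromosome 6 were 37.3% to 42% G and C with 0 or 1 CG pair, and the median over all promoters was 52.7%. These matches describe letters in a window and were not tested for binding.

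The coding sequences show how close the cluster is. In the GENCODE M1 transcripts, that of Gm6614 (1953 bases) was 86.5% identical to Slco1a4, 85.5% to Slco1a1 and 83.9% to Slco1a6, and 56.1% identical to Slco1c1. Of its 1904 stretches of 50 bases, 109 (5.72%) also occurred in a transcript of another gene of the cluster, Slco1a6 sharing the most. A read that lies wholly within such a stretch cannot be assigned with certainty, and a longer read may reach beyond it. The share counts stretches and sets no bound on the error in counts of the Slco1a genes, which was not measured. In the vehicle kidneys, Slco1a6 held 5712 to 7464 counts a library and Gm6614 held 72 to 129.

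Levels in vehicle-treated 20-month mice separated the members into kidney, brain and shared groups. Slco1a1 (ENSMUSG00000041698), a carrier of steroid sulfates and other anions on the apical side of proximal tubule cells, was at 174, 165, 258, 86.6 and 198 CPM in the 5 vehicle kidneys. It had no count in any of the 6 vehicle brains and at most 2 counts in any vehicle heart. Slco1a6 (ENSMUSG00000079262), another renal Slco1a carrier, was at 199, 197, 204, 221 and 183 CPM in kidney. No more than 2 counts in brain and 4 in heart were found. With the limit that 3 counts set in the shallowest library of each tissue, Slco1a1 was at least 1822-fold higher in kidney than in brain and at least 1133-fold higher than in heart. For Slco1a6, the same bounds were at least 2076-fold and at least 1291-fold. Slco1a6 varied little among vehicle kidneys (201 ± 13.4 CPM, SD, n = 5), whereas Slco1a1 ranged widely (176 ± 61.8 CPM, SD, n = 5).

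Gm6614 (ENSMUSG00000079263) was found in the same tissue at a far lower level. Its vehicle kidneys held 2.50, 4.13, 2.57, 4.53 and 2.63 CPM, or 72 to 129 counts a library. It had no count in the vehicle hearts and 1 count in 1 of the 6 vehicle brains. Its kidney level was at least 33.8-fold that of brain and at least 21.0-fold that of heart by the same limit. Slco4c1 (ENSMUSG00000040693), a basolateral carrier of the renal proximal tubule, was at 39.1 ± 4.31 CPM (SD, n = 5) in kidney. Its mean was 2.64 CPM in brain and 0.191 CPM in heart, and no values of the 3 tissues overlapped. Slco4a1 (ENSMUSG00000038963), a widely expressed carrier of thyroid hormones, had the same order, with 22.6 ± 5.88 CPM (SD, n = 5) in kidney, 5.27 ± 0.97 CPM (SD, n = 6) in brain and a mean of 0.233 CPM in heart. In heart, replicate 62 held 21 counts of Slco4a1 and 16 of Slco4c1, and the other vehicle hearts held 0 to 7 counts of either.

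Slco1a4 and Slco1c1 were brain genes. Slco1c1 (ENSMUSG00000030235), a thyroxine carrier of brain capillaries and choroid plexus, had 36.9, 39.0 and 42.5 CPM as lowest, median and highest of the 6 vehicle brains. It reached at most 0.841 CPM in heart and 0.172 CPM in kidney, ranges that overlapped each other. Slco1a4 (ENSMUSG00000030237), a carrier of bile salts, steroid conjugates and cardiac glycosides at the blood-brain barrier, had 39.0, 45.9 and 48.1 CPM in brain. Its level was 2.62 ± 0.35 CPM (SD, n = 5) in kidney and 1.67 ± 0.78 CPM (SD, n = 6) in heart, and its kidney level was 17.2-fold below that of brain. Kidney and heart overlapped for Slco1a4.

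Slco2a1, Slco2b1 and Slco3a1 were found in each tissue. Slco2a1 (ENSMUSG00000032548), the prostaglandin transporter that takes up prostaglandins for breakdown, was ordered kidney, heart and brain without overlap, at 56.0 ± 4.64 CPM (SD, n = 5), 8.67 ± 0.95 CPM (SD, n = 6) and 3.98 ± 0.48 CPM (SD, n = 6). Slco2b1 (ENSMUSG00000030737), a carrier of steroid sulfates and drugs, was at 49.9 ± 10.2 CPM (SD, n = 5) in kidney and 45.7 ± 5.24 CPM (SD, n = 6) in heart. Those ranges overlapped, and both lay above the brain (14.1 ± 0.87 CPM, SD, n = 6). Slco3a1 (ENSMUSG00000025790), the most widely expressed of the family, was likewise not separated between kidney (242 ± 40.9 CPM, SD, n = 5) and heart (227 ± 15.5 CPM, SD, n = 6), and 4.93-fold and 4.63-fold above the brain (49.0 ± 2.56 CPM, SD, n = 6). In these whole-tissue samples, fewer cells of a type and less RNA per cell cannot be told apart.

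**Figure D1:**
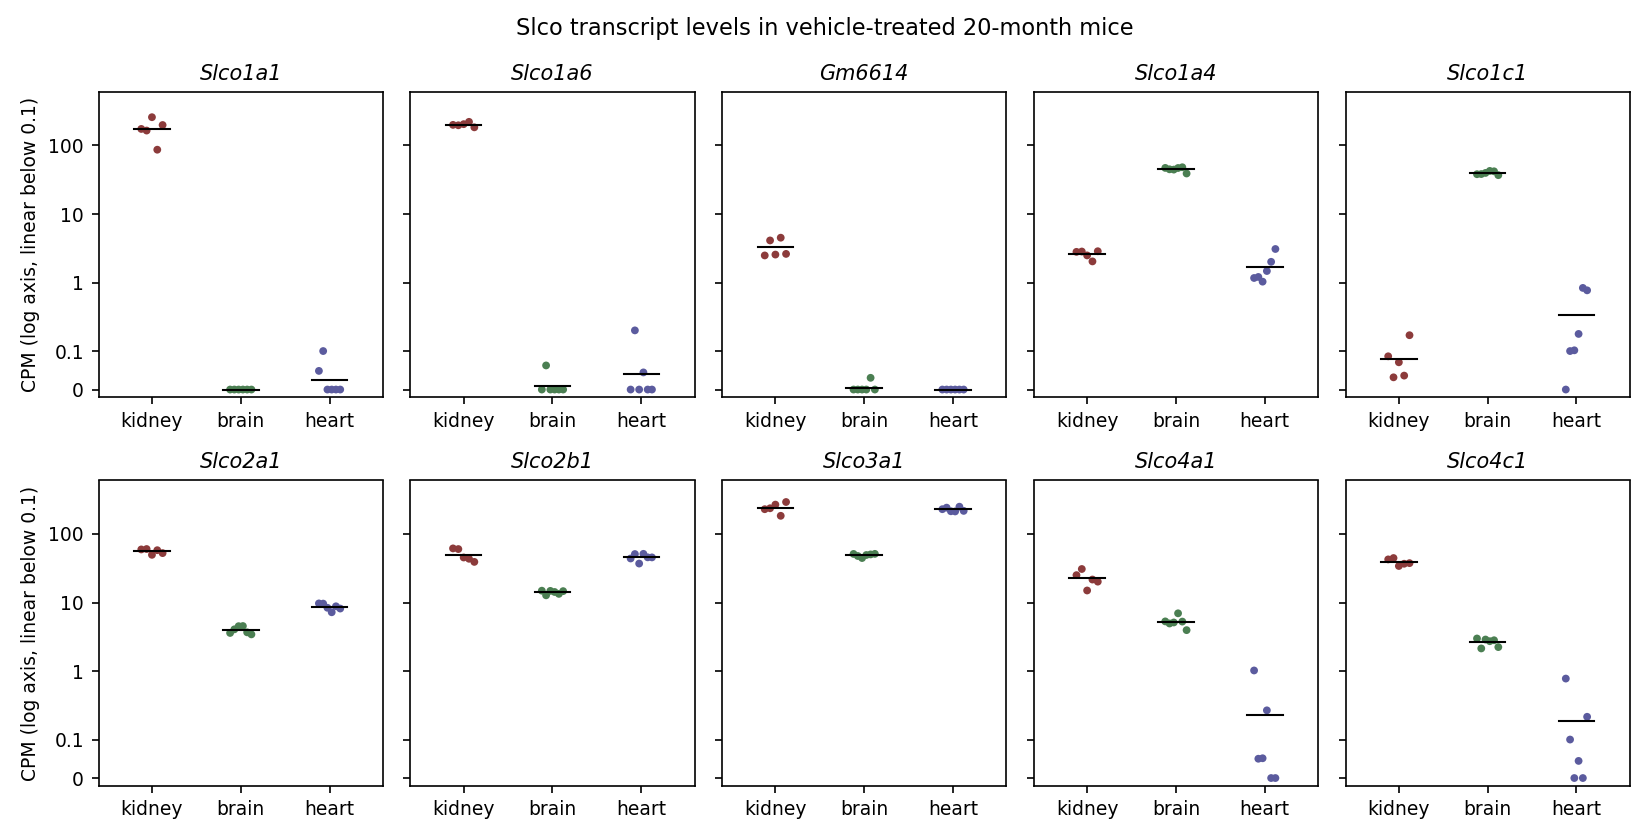
Level of each member in vehicle-treated mice of 20 months, in CPM on a log axis that is linear below 0.1, with 1 point per library (5 kidney, 6 brain, 6 heart) and a line at the mean. Slco1a1, Slco1a6 and Gm6614 sit at or near 0 outside the kidney, Slco1c1 and Slco1a4 are highest in brain, and kidney and heart overlap for Slco2b1 and Slco3a1.

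Divided by exon length (GENCODE M1), so that genes can be compared with each other, the vehicle kidney was led by Slco1a6 at a level of 52.7 CPM per kb, followed by Slco1a1 (33.4), Slco3a1 (28.5), Slco4c1 (16.3) and Slco2a1 (13.9). Gm6614 was the eighth of 10 at 1.68 CPM per kb, by its coding length, since that model holds no UTR. In brain, Slco1c1 (14.5 CPM per kb) and Slco1a4 (11.7 CPM per kb) made up 38.5% and 31% of the summed member level. In heart, Slco3a1 alone made up 70.9% of the sum at 26.8 CPM per kb, and Slco2b1 a further 21.5%.

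Under Cmpd60 in the kidney, Gm6614 had a positive log2 fold change, and its flanking genes Slco1a1 and Slco1a6 and the more distant Slco1a4 had negative ones. Of these 4, Gm6614 passed the threshold, beside 0.300% of all genes tested, and the other 3 did not. The 6 Cmpd60 kidneys held 17.0, 15.7, 12.0, 7.63, 9.55 and 21.5 CPM of Gm6614, or 222 to 684 counts. Each of them lay above each vehicle kidney, the lowest being 7.63 CPM and the highest vehicle value 4.53 CPM. The log2 fold change was 2.09 (SE 0.27), a 4.25-fold higher level. It ranged from 1.93 to 2.24 when each library was left out in turn, and was 1.99 without the 3 kidneys of few detected genes.

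The neighbour Slco1a1 was at 118, 69.4, 131, 22.4, 27.6 and 27.3 CPM in the Cmpd60 kidneys. Of these, 4 lay below the lowest vehicle value of 86.6 CPM, and 2 lay inside the vehicle range. Its log2 fold change was -1.42 (SE 0.44), with a range from -1.73 to -1.24 when each library was left out. Slco1a6, on the other side of Gm6614, had 163, 163, 158, 182, 129 and 114 CPM with Cmpd60. All 6 values lay below the vehicle range of 183 to 221 CPM, and the log2 fold change was -0.41 (SE 0.12). The groups lay close, with the highest Cmpd60 value at 181.7 CPM and the lowest vehicle value at 183.5 CPM. Slco1a4, low in this tissue, was at 0.997 to 2.20 CPM with a median of 1.43 CPM. Of its Cmpd60 kidneys, 5 lay below the vehicle range of 2.05 to 2.88 CPM, with a log2 fold change of -0.78 (SE 0.24).

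Gm6614 was also highest in Cmpd60 replicate 55, the kidney with the lowest Slco1a6 value and the lowest proximal tubule sum. The 8 proximal tubule markers summed to 13120 to 17103 CPM in vehicle kidneys and to 7781 to 17932 CPM with Cmpd60. Of them, 7 had a negative and 1 a positive log2 fold change, with a median of -0.34, and none passed the test. Their part in the lower values of Slco1a1 and Slco1a6 was not tested. Without the 3 kidneys of few detected genes, the log2 fold change was -0.98 for Slco1a1 and -0.42 for Slco1a6. In Cmpd60 replicate 53, Slco1a1 was at its lowest (22.4 CPM) while Slco1a6 was at its group's highest (182 CPM) and the proximal tubule sum was 14538 CPM.

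**Figure D2:**
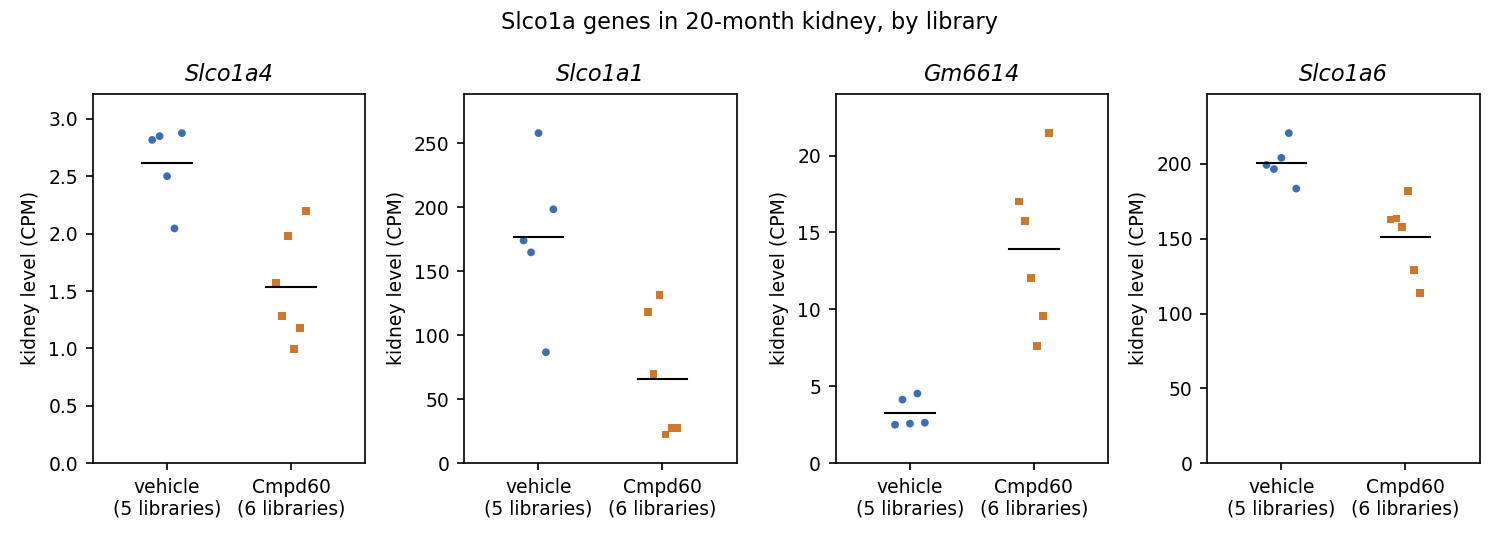
Kidney level in CPM of the 4 Slco1a-type members, in their order along chromosome 6, with 1 point per library (circles, 5 vehicle; squares, 6 Cmpd60) and a line at the mean; each panel has its own linear axis from 0. Gm6614 is higher in all 6 Cmpd60 libraries, whereas most Cmpd60 values of the other 3 genes lie under the vehicle values.

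The other renal members moved less. Slco3a1 was at 174 to 244 CPM with Cmpd60 (median 186) and at 184 to 292 CPM with vehicle, with a log2 fold change of -0.30 (SE 0.12). Slco4a1 was at 24.3 to 33.8 CPM against 15.0 to 30.8 CPM (0.32, SE 0.15), and Slco2a1 at 53.6 to 69.7 CPM against 49.6 to 60.3 CPM (0.14, SE 0.09). Slco4c1 (-0.08, SE 0.16) and Slco2b1 (0.06, SE 0.15) had log2 fold changes smaller than their errors. Each of these 5 members overlapped between the groups, and Slco1c1 held at most 7 counts in a kidney library. All 10 members passed the filter on low counts. By edgeR's quasi-likelihood test over 20698 genes, 1 of the 10 members, Gm6614, passed an adjusted p of 0.05, beside 0.300% of all genes. Gm6614 and Slco1a6 had groups that did not overlap, 2 of 10 members beside 2.30% of all genes. Since the members were chosen on these contrasts, nothing is read from those shares. The median log2 fold change of the 10 was -0.19 against 0.00 over all genes tested (-8.01e-05).

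**Figure D3:**
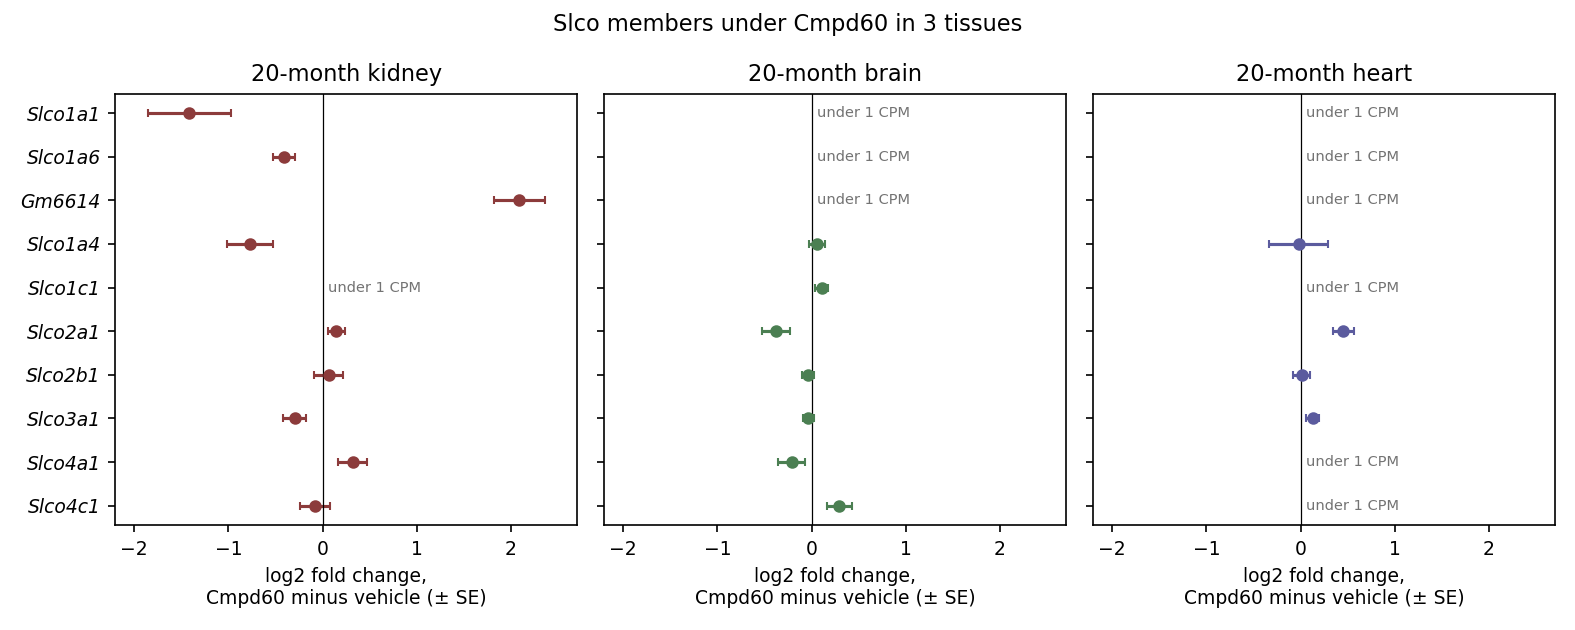
Log2 fold change of each member, Cmpd60 minus vehicle, with its standard error, in kidney (6 against 5 libraries), brain (6 against 6) and heart (5 against 6) of 20-month mice; members under 1 CPM in both groups carry no point. The largest changes are those of Gm6614 (2.09) and Slco1a1 (-1.42) in kidney, and the brain values lie between -0.38 and 0.29.

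In the brain, the 2 leading carriers kept their levels within the spread of the libraries. Slco1c1 had 34.9, 44.4 and 48.9 CPM as lowest, median and highest Cmpd60 values, around the vehicle range, and a log2 fold change of 0.11 (SE 0.07). Slco1a4 had 37.5, 50.1 and 56.6 CPM, with a log2 fold change of 0.06 (SE 0.08). The Cmpd60 brains spread more widely than the vehicle brains for both, and Cmpd60 replicate 34 was the lowest library for each.

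Slco2a1 had the lowest log2 fold change in this tissue, -0.38 (SE 0.15). Its Cmpd60 brains held 2.05, 3.27 and 4.2 CPM, against 3.44, 3.88 and 4.56 CPM with vehicle, and 5 of 6 lay below the vehicle range. The 7 choroid plexus markers, which include Ttr, summed to 190 to 846 CPM in the Cmpd60 brains and to 469 to 652 CPM with vehicle, and the lowest sum was in the replicate with the lowest Slco2a1 value, 34. Of the 7, 3 had a positive and 4 a negative log2 fold change, with a median of -0.02, and none passed the test. The 6 general endothelial markers went the other way from Slco2a1, with 6 of 6 positive (median 0.21, none past the test) and sums of 97.7 to 138.7 CPM with Cmpd60 against 84.8 to 102 CPM with vehicle. Of the 6 markers of brain endothelium, 4 were positive and 2 negative (median 0.12, none past the test). The part of endothelial content in the Slco1a4, Slco1c1 and Slco2a1 values and the part of choroid plexus content in the Slco2a1 values was not tested. Slco4c1 went the other way, with 2.74 to 3.86 CPM against 2.15 to 3.00 CPM, 4 of 6 above the vehicle range and a log2 fold change of 0.29 (SE 0.13). Slco4a1 (-0.21, SE 0.14), Slco2b1 (-0.04, SE 0.07) and Slco3a1 (-0.03, SE 0.06) overlapped between groups. Gm6614 was at the limit of detection, with 2, 3, 10 and 5 counts in 4 of the 6 Cmpd60 brains and none in the other 2. Slco1a1 and Slco1a6 did not pass the filter on low counts. None of the 8 members tested passed the threshold and none had groups that did not overlap, beside 0.0205% and 0.925% of 24438 genes. At an unadjusted p under 0.05, 3368 of these genes were found, and DESeq2 called 321 genes but none of the members. If nothing changed, a share of about 0.05 of the 24438 genes would be found at that unadjusted level.

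In the heart, Slco2a1 was higher with Cmpd60. The 5 Cmpd60 hearts held 11.3, 13.1, 11.2, 11.7 and 12.7 CPM, against 7.23, 8.61 and 9.73 CPM as lowest, median and highest of the 6 vehicle hearts. The groups did not overlap, and the log2 fold change was 0.46 (SE 0.11), a 1.37-fold higher level. It ranged from 0.41 to 0.50 when each library was left out. The call by adjusted p rested on the setting: Slco2a1 passed in edgeR and DESeq2, but not with limma-voom, with DESeq2's size factors in edgeR or without the filter on low counts, and in 1 of 11 fits with a library left out. The 6 endothelial markers, among them Pecam1 and Cdh5, summed to 1442 to 1912 CPM with Cmpd60 and to 1294 to 1447 CPM with vehicle. All 6 had a positive log2 fold change with a median of 0.19, and none passed the test. The 6 macrophage markers were also all positive (median 0.21), with none past the test. The part of either list in the Slco2a1 difference was not tested.

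**Figure D4:**
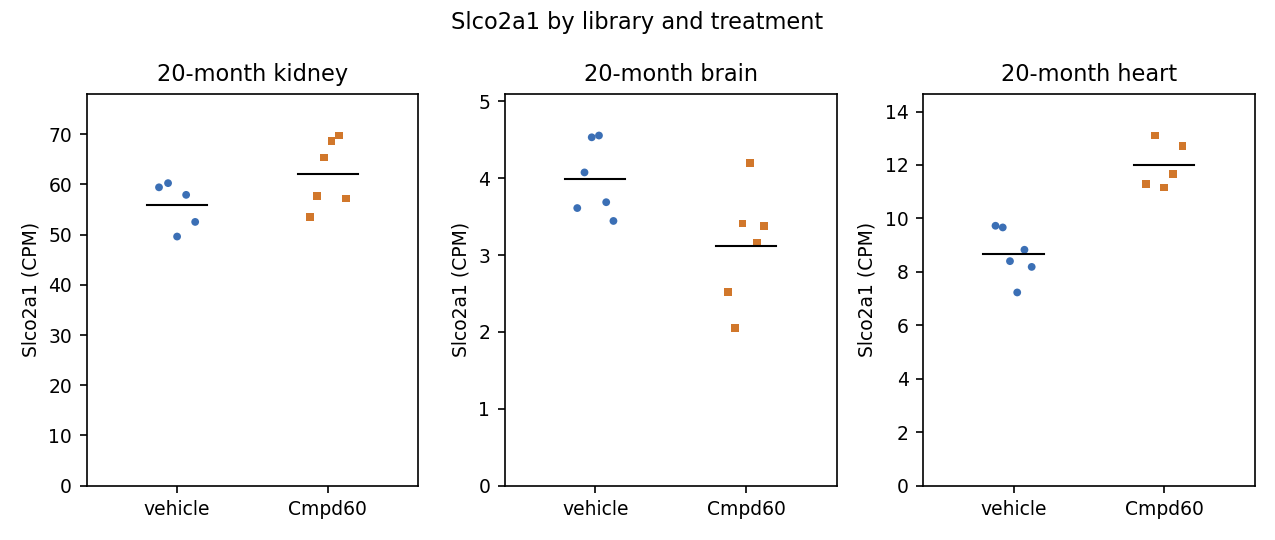
Level of Slco2a1 in CPM in each library of kidney, brain and heart at 20 months (circles, vehicle; squares, Cmpd60; lines, means), each panel with its own linear axis from 0. The 5 Cmpd60 hearts (11.2 to 13.1 CPM) lie above all vehicle hearts (7.23 to 9.73 CPM), the groups overlap in kidney, and 5 of 6 Cmpd60 brains lie below the vehicle brains.

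The abundant heart members had small log2 fold changes. Slco3a1 was at 252, 254, 264, 259 and 224 CPM with Cmpd60 and at 213 to 249 CPM with vehicle, with a log2 fold change of 0.13 (SE 0.07). In these CPM, all Cmpd60 values but the last lay above the vehicle range. With TMM over the heart libraries alone, 0 of 5 did. Slco2b1 was at 40.7 to 54.2 CPM against 37.0 to 51.3 CPM (0.01, SE 0.09), and Slco1a4 at 1.17 to 2.36 CPM against 1.04 to 3.10 CPM (-0.02, SE 0.31). Of the 10 members, 7 passed the filter on low counts, and Slco1c1, Slco4a1 and Slco4c1 were under 1 CPM on average in both groups. Slco2a1 was the 1 member of 7 past the adjusted threshold, beside 1.18% of 19452 genes, and the 1 without overlap, beside 2.69%. Nothing is read from these shares either. The difference between tissues in the Slco2a1 change (0.46 in heart, 0.14 in kidney, -0.38 in brain) was not tested.

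The younger brains of the second experiment were not used to choose the members, so tests are given there. Per kb of exon, Slco1c1 and Slco1a4 again led in littermate vehicle brain, with means of 19 and 11.9 CPM per kb against 5.55 for Slco3a1, and Slco1a1, Slco1a6 and Gm6614 held at most 2 counts in a library. In littermates, the log2 fold change under Cmpd60 was 0.32 for Slco1a4 (95% interval -0.16 to 0.80) and -0.09 for Slco1c1 (-0.37 to 0.19). In APPSWE mice, it was 0.12 for Slco1a4 (-0.39 to 0.62) and -0.03 for Slco1c1 (-0.33 to 0.27). Slco3a1 had 0.14 (-0.15 to 0.44) in littermates and 0.15 (-0.15 to 0.46) in APPSWE mice. For these 3 genes, the intervals leave room for changes of up to 0.80 on the log2 scale, above each change they showed in the aged brain.

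For Slco2a1, the intervals were wider, at 0.69 (-0.97 to 2.36) in littermates and -0.36 (-2.12 to 1.41) in APPSWE mice. In APPSWE mice, the Slco2a1 value came to 0.048 without the library Cmpd-60-141, whose level was 0.0778 CPM. By genotype, in vehicle brains, the largest log2 fold changes were 0.94 for Slco4c1 (-0.99 to 2.88) and 0.88 for Slco2a1 (-0.79 to 2.55), APPSWE minus littermate. None of the 7 members tested passed the threshold, with the lowest adjusted p-value in edgeR at 0.999 for Cmpd60 in littermates, 0.887 for Cmpd60 in APPSWE mice and 0.846 for the genotype. The share of all 23194 genes called was 0%, 0% and 0.00862% in these contrasts. At an unadjusted p under 0.05, 852, 2195 and 2012 genes were found, and DESeq2 called 4, 16 and 20. If nothing changed, a share of about 0.05 of the 23194 genes would be found at that unadjusted level.

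Several values far from their group were in libraries of few detected genes. The littermate library vehicle-155 held 13.6 CPM of Slco1a4 against 49.3 to 60.1 CPM in the other 4, 3.05 CPM of Slco2b1 against 16.0 to 20.5 CPM, and 0 CPM of Slco4a1 against 4.54 to 5.02 CPM, although its Slco1c1 level (53.6 CPM) lay within the group. The littermate library Cmpd-60-152 had no count of Slco4c1, against 3.28 to 4.05 CPM in the others. Without the 5 libraries of few detected genes, a choice made after seeing the data, no member passed either, with lowest adjusted p-values of 0.999, 0.746 and 0.657 in the edgeR test. Their part in the differences between groups was not otherwise tested.

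**Figure D5:**
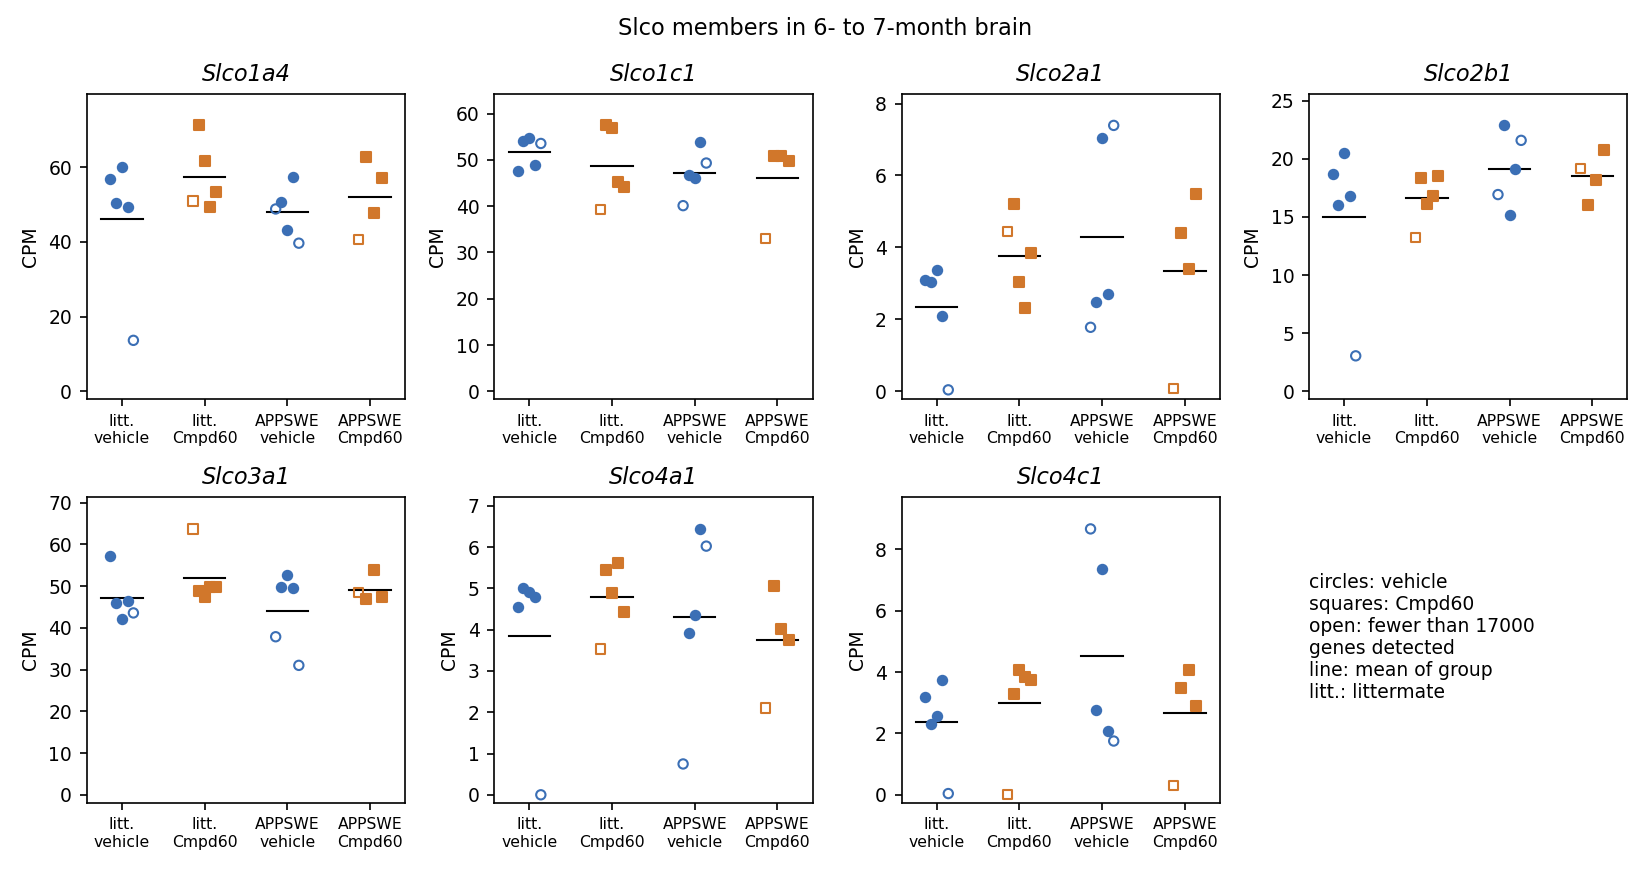
Level in CPM of the 7 members tested in brain at 6 to 7 months, by genotype and treatment (circles, vehicle; squares, Cmpd60; open symbols, libraries with fewer than 17000 genes detected; lines, group means; vehicle-139 left out). The open symbols account for the values at or near 0 of Slco2a1, Slco4a1 and Slco4c1, and the filled symbols of the 4 groups overlap for Slco1a4 and Slco1c1.

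Genes that share substrates with the family were counted from 5 lists, of which the kidney had the most calls in the prostaglandin list. The 5 lists were chosen with earlier results of these data known. Adjusted p-values and counts of their genes in the aged tissues are therefore a description and no independent test. Of the 18 tested genes of the prostaglandin list in kidney, 1 rose and 2 fell, beside 0.300% of all genes called. Their median log2 fold change was -0.08. Nothing is read from the counts of these lists. Cbr1, a carbonyl reductase that can reduce prostaglandins, rose from 56.7 ± 11.1 to 127 ± 31 CPM (SD, n = 5 and 6), with a log2 fold change of 1.16 (SE 0.17, adjusted p = 0.00679 in edgeR). Slc22a22, a renal organic anion carrier that takes up prostaglandins, fell from 68.9 ± 13.2 to 18.0 ± 6.84 CPM (log2 fold change -1.94, SE 0.21, adjusted p = 0.000652 in edgeR). Ptgfr, the receptor of prostaglandin F2α, fell from 42.2 to 29.7 CPM (-0.51, SE 0.09, adjusted p = 0.0197 in edgeR). Hpgd, which degrades prostaglandins taken up by cells, did not pass the test in kidney (-0.29, SE 0.13) or heart (-0.54, SE 0.14, adjusted p = 0.0811 in edgeR). In heart and brain, none of the 17 and 18 genes tested passed, beside 1.18% and 0.0205% of all genes.

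Of the 19 other transporters of organic anions, all were tested in kidney, and 1 passed, beside 0.300% of all genes. This was Abcc4, which exports cyclic nucleotides and prostaglandins. It rose from 92.3 ± 6.45 to 129 ± 14.2 CPM (log2 fold change 0.48, SE 0.09, adjusted p = 0.0384 in edgeR). The basolateral carriers Slc22a6 (-0.23, SE 0.20) and Slc22a8 (0.38, SE 0.19) did not pass. In heart, Abcc3 rose from 1.90 to 3.76 CPM (0.98, SE 0.21, adjusted p = 0.0394 in edgeR). It was 1 of 14 tested, beside 1.18% of all genes, and none of 13 passed in brain, beside 0.0205%. None of the 12 genes of thyroid hormone handling passed in kidney, nor any of the 11 tested in brain or in heart. Of the regulators of transporter genes, none of 11 tested passed in kidney and none of 8 in brain or in heart. Of the 11 regulators in kidney, 6 had a positive and 5 a negative log2 fold change, with a median of 0.06. Nr1i2, the xenobiotic receptor PXR, was named after its value was seen. It was at 12.3 CPM with Cmpd60 and 8.79 CPM with vehicle in kidney (log2 fold change 0.48, SE 0.13, adjusted p = 0.155 in edgeR). In the 3 contrasts of the younger brain, no gene of the 5 lists passed.

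Of the 7 other Slco genes, Slco5a1, a member of little known function, was the only one above 1 CPM on average in an aged tissue. It was at 27.1 to 46.2 CPM in vehicle hearts, 4.82 to 6.55 CPM in vehicle brains and at most 0.61 CPM in vehicle kidneys. With Cmpd60 it was at 27.5 to 33.9 CPM in heart (log2 fold change -0.19, SE 0.12, adjusted p = 0.548 in edgeR). Slco1a5, the nearest gene beyond Slco1a6 in the cluster, reached at most 0.345 CPM in kidney.

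The genes most like a member in its leading tissue were named for 4 members by Pearson correlation of log2 CPM after the treatment means were removed, as a description over 11 kidney or 12 brain libraries that share depth and tissue composition. For Slco1a1, they were Slc17a3 (r = 0.96), a renal anion and urate carrier, Slc12a7 (0.96), a potassium-chloride cotransporter, and Csad (0.95), an enzyme of taurine synthesis. For Slco1a6, they were 4632415L05Rik (0.97), Ncoa7 (0.96) and Cdc37l1 (0.95). No member of the cluster was among the 3 closest genes of another member. For Slco2a1 in kidney, the closest were Npnt (0.94), Lrp1 (0.93) and Abca9 (0.93), and for Slco1c1 in brain, Bfsp2 (0.92), Ddx52 (0.90) and Rnf180 (0.90). In each case, the highest of 14290 (kidney) or 15080 (brain) coefficients was taken, so that values of this size carry no weight of their own.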

How the data were processed

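RNA of 54 libraries was isolated with oligo-dT beads and prepared with a directional kit. Per the labels, the authors trimmed reads with Trimmomatic 0.32, aligned them with HISAT2 2.1.0 and counted them per Ensembl gene with HTSeq 0.11.0, and deposited raw counts. The genome build is not given in the sources used here. The 5 HTSeq summary lines (15.4% to 22.1% of a library's reads) were left out. Groups follow source names.

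Counts were analysed in R 4.3.3. Each aged tissue was fitted alone and the younger brains in 1 fit of 19 libraries with a term per group, with edgeR 4.0.16 (TMM, quasi-likelihood test, genes above 2 counts in at least 3 libraries, Benjamini-Hochberg adjustment over all genes, threshold 0.05, 2-sided). Standard errors were derived from the log2 fold change and the F statistic, and intervals are 95%. CPM use TMM over the 34 aged or the 20 younger libraries. Overlap of groups among tested genes was counted with TMM over the libraries of each fit. Limits of 3 counts cover counting error only. Alternatives were DESeq2 1.42.0, limma-voom (limma 3.58.1), other scaling and filters, libraries left out, and the library vehicle-139 put back. The fit was run on counts simulated from the same model that it fits, so that run does not bear on libraries that depart from the model. No libraries held identical counts (0 pairs). Symbols were matched for all 10 members.

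The members, the 5 gene lists and the marker lists were chosen with earlier results of these data known. Named list genes are those past the threshold (at most 6 a list and tissue), the genes most like a member are the 3 with the highest Pearson correlation of log2 CPM (offset 0.5) in its leading tissue after treatment means were removed, and others named beside them were chosen after their values were seen. Some genes that these rules name are not reported here. Promoters are from RefSeq GRCm38.p6, and exon lengths and coding sequences from GENCODE M1, aligned with Biopython 1.88.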

Additional observations from a re-analysis of the deposited data

Results flagged for a closer look

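Across the members with a mean of at least 1 CPM, 68 groups of libraries were searched for a library far from the rest, and 7 were found. The same libraries recur across members, so the searches are not independent and no chance rate is set against this count. In littermate vehicle brain, the library titled vehicle-155 stood apart for Slco1a4 (13.6 CPM, the next at 49.3), Slco2b1 (3.05 CPM, the next at 16.0) and Slco4a1 (0 CPM, the next at 4.54). In the same group, vehicle-149 was high for Slco3a1 (57.1 CPM, the next at 46.4). In littermate Cmpd60 brain, Cmpd-60-152 was high for Slco3a1 (63.7 CPM, the next at 49.9) and at 0 CPM for Slco4c1 (the next at 3.28). In APPSWE Cmpd60 brain, Cmpd-60-141 was low for Slco1c1 (33.0 CPM, the next at 49.7). Cmpd-60-141, Cmpd-60-152 and vehicle-155 are among the 5 libraries with fewer than 17000 genes detected, which held 6 of the 7 values. No library of the aged tissues was found this way.

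The library vehicle-139, left out of the tests because its treatment is given in 2 ways, held 3.72 CPM of Slco2a1, above the highest littermate vehicle brain (3.37 CPM) and inside the range of the other APPSWE vehicle brains (1.78 to 7.39 CPM).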

How the results depend on the processing

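In kidney, Gm6614 was called in every setting run and in 11 of 11 fits with a library left out, which is a description and no sign of stability, since the members were chosen with this contrast known. DESeq2 alone also called Slco1a6, for 2 of 10 members, beside 391 of 20698 genes in kidney. It called 321 of 24438 genes in brain and 666 of 19452 in heart. In the younger contrasts (littermate, APPSWE, genotype), it called 4, 16 and 20 of 23194. Without the filter, the calls were 94 in kidney, 102 in brain, and 2 and 8 for Cmpd60 in littermates and APPSWE mice, and limma-voom called 2 genes in brain. In heart, 0 members passed with DESeq2 size factors in edgeR, limma-voom or no filter. Leaving out each library, genes called ranged from 20 to 131 in kidney, 1 to 372 in brain (1 without Cmpd60 replicate 33, 372 without vehicle replicate 29), 36 to 247 in heart, 0 to 2 in littermates, 0 to 0 in APPSWE mice and 1 to 4 by genotype, and members called from 1 to 1, 0 to 0, 0 to 1, and 0 to 0 in the 3 younger contrasts.

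Without the 5 libraries of few detected genes, added after seeing the data, the younger contrasts had 1, 3 and 7 calls. There, log2 fold changes changed sign for Slco2b1 in littermates (-0.043), Slco1c1 (0.044), Slco2a1 (0.12) and Slco3a1 (-0.038) in APPSWE mice, and Slco1a4 (-0.10) and Slco3a1 (0.079) by genotype. With limma-voom, those of Slco4c1 in littermates (-0.25), Slco1c1 (0.0093) and Slco4a1 (0.56) in APPSWE mice did. With each library left out in turn, log2 fold changes crossed 0 for Slco2b1 (-0.11 to 0.29) and Slco4a1 (-0.0048 to 0.43) in littermates, for Slco1c1 (-0.088 to 0.095), Slco2a1 (-0.70 to 0.048) and Slco2b1 (-0.12 to 0.027) in APPSWE mice, and for Slco1a4 (-0.17 to 0.18), Slco3a1 (-0.16 to 0.013) and Slco4a1 (-0.16 to 0.43) by genotype. In the aged tissues they crossed 0 for Slco1a4 (-0.19 to 0.24), Slco1c1 (-0.70 to 0.098) and Slco2b1 (-0.039 to 0.056) in heart and for Slco2b1 (-0.020 to 0.15) and Slco4c1 (-0.18 to 0.032) in kidney. With raw library sizes, vehicle means were 53.1 (Slco1a4), 46.7 (Slco1c1), 4.70 (Slco2a1), 16.7 (Slco2b1), 57.7 (Slco3a1) and 3.12 CPM (Slco4c1) in brain, 6.91 (Slco2a1), 36.4 (Slco2b1) and 181 CPM (Slco3a1) in heart, and 216 CPM (Slco1a6) in kidney. The cause was not tested. No paired analysis was possible because the groups share no replicate numbers.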

Other observations

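Of the 12 marker lists, few genes passed the edgeR test. The marker lists too were chosen with earlier results of these data known, so these values are a description. In kidney, Ttr, which is in the choroid plexus and the hepatocyte list and encodes the thyroxine carrier transthyretin, fell (log2 fold change -1.43, SE 0.21, adjusted p = 0.00679), and in heart, Gja1, the connexin of the astrocyte list, rose (0.43, SE 0.08, adjusted p = 0.0245). No gene of the proximal tubule, other tubule, endothelial, brain endothelial, neuron, macrophage and microglia, cardiomyocyte, pericyte or lymphocyte lists passed in an aged tissue.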
